A study of Homo sapiens with 4 samples.

Results

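The cytosolic heat shock factors and chaperones were followed here as 10 genes, taken from the deposited gene table by their names, of 25122 genes in all. They are the transcription factors HSF1 and HSF2, the HSP70 proteins HSPA8, HSPA1A and HSPA1B, the HSP110 protein HSPH1, the J-domain proteins DNAJA1 and DNAJB1, and the HSP90 proteins HSP90AA1 and HSP90AB1. Jurkat cells, a human T-cell acute lymphoblastic leukaemia line, carried a short hairpin RNA against BDH1 (shBDH1, 2 libraries) or a control hairpin (shcontrol, 2 libraries), and mRNA was sequenced. BDH1 encodes the mitochondrial 3-hydroxybutyrate dehydrogenase, an enzyme of ketone body metabolism. All 4 libraries are labelled wild type, and the labels give neither the time after hairpin delivery nor the number of hairpins. The series as a whole asks how ketone metabolism bears on histone modification and leukaemia. Nothing in the labels ties the 2 libraries of a group to different cultures, so the p-values below rest on a spread that may be technical.

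HSF1 is the main activator of the heat shock response. Unfolded protein draws chaperones away from HSF1, which then forms trimers and binds heat shock elements, inverted repeats of GAA, before chaperone genes; HSF2 is a related factor that binds the same elements. HSP70 proteins hold and release unfolded chains in a cycle driven by ATP, in which J-domain proteins bring the client and start hydrolysis, and HSP110 proteins such as HSPH1 exchange the nucleotide. HSP90 proteins take over partly folded clients, among them many kinases and receptors, and are among the most abundant proteins of the cytosol.

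Library totals ranged from 28681511 to 29453383 reads in genes. BDH1, the targeted gene, had 1221 and 1412 normalized counts in shBDH1, against 1725 and 1911 in shcontrol, a log2 fold change of -0.47 (SE 0.08, adjusted p = 1.5e-05 by limma). Of 6 T cell markers, 5 rose and 1 (CD3G) fell, and their summed level was 43175 and 43178 in shBDH1, against 34179 and 34475 in shcontrol. Among all genes with a mean of at least 1000 normalized counts, 26.2% rose and 34.7% fell (limma, adjusted p under 0.05). The myeloid marker list summed to 72.7 and 67.4 in shBDH1 and to 56.5 and 57.2 in shcontrol, 4 genes of which LYZ was at 0 in 3 of 4 libraries. B cell and erythroid markers are not reported here. COL1A1, of fibroblasts, rose to 546 and 534 in shBDH1, against 388 and 406 in shcontrol, and KRT8, of epithelia, rose to 325 and 228 in shBDH1, against 111 and 128 in shcontrol. Of 3 fibroblast markers listed only COL1A1 was in the gene table, and of 3 epithelial markers only KRT8. The part of such other-lineage genes in the results was not tested. In bulk RNA, fewer cells of a type and less RNA per cell cannot be told apart.

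All 10 genes were in the table and 9 passed the filter (a mean of at least 10 normalized counts); HSPA1A did not. Of the 9, 6 rose and 2 fell (limma, Benjamini-Hochberg adjusted p under 0.05), while 41.1% of all 19301 genes tested were called, 20.3% up and 20.8% down. Among the 7227 genes with a mean of at least 1000, 60.9% were called, 26.2% up and 34.7% down. The median log2 fold change of the 9 was 0.18, beside -0.01 over all genes tested. All 9 had groups that did not overlap, 7 with shBDH1 higher and 2 with it lower, as had 69.0% of genes tested, 34.1% with shBDH1 higher and 34.9% with it lower. Fold changes are shBDH1 over shcontrol on the scale of log2(normalized count + 1), which understates the change of low genes.

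**Figure D1:**
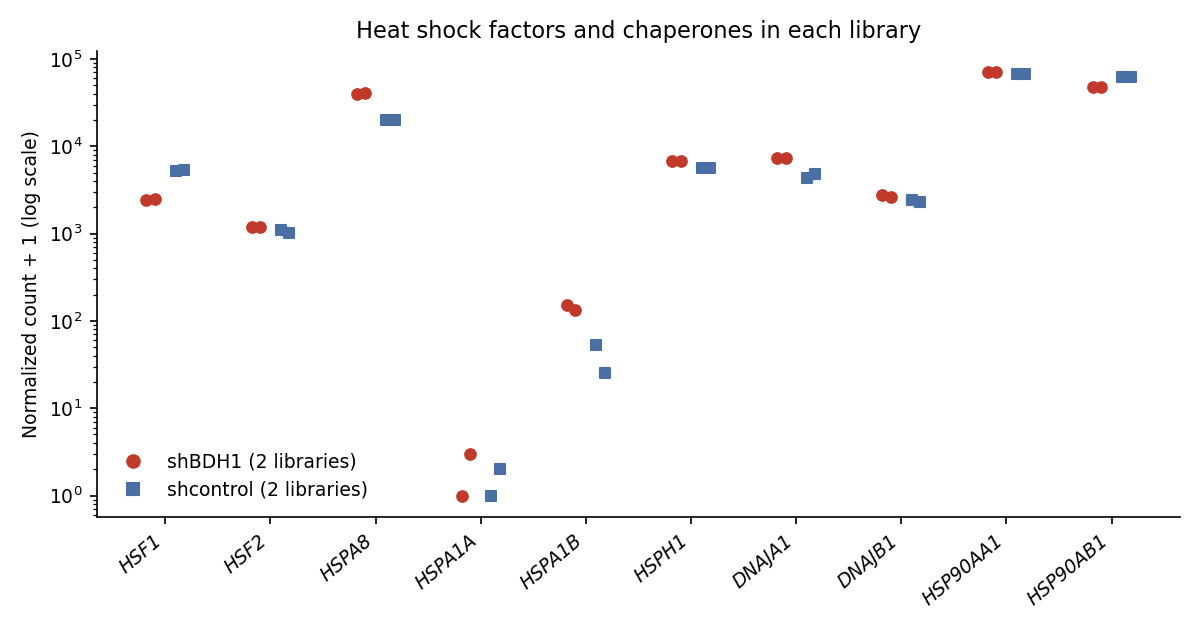
Normalized count plus 1 (log scale) of each of the 10 genes in each library, with shBDH1 libraries as circles and shcontrol libraries as squares. HSF1 and HSP90AB1 lie lower in both shBDH1 libraries, HSPA8, HSPA1B and DNAJA1 lie higher, and HSPA1A stays at 0 to 2.01 normalized counts.

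Of the 2 factors, HSF1 fell and HSF2 did not pass the test. HSF1 (ENSG00000185122, chromosome 8 from 144291591 to 144314722, hg38) had 2403 and 2491 normalized counts in shBDH1, against 5147 and 5357 in shcontrol. Both shBDH1 libraries were far below both shcontrol libraries, and the mean fell by 53.4%. This was a log2 fold change of -1.10 (SE 0.05, 95% interval -1.21 to -0.99, adjusted p = 4.4e-16 by limma), which ranked 391 among all 19301 genes counted from the largest fall. HSF2 (ENSG00000025156, chromosome 6 from 122399546 to 122433119) had 1177 and 1181 normalized counts in shBDH1, against 1086 and 1027 in shcontrol. It did not pass the test, with a log2 fold change of 0.16 (SE 0.08, 95% interval -0.01 to 0.32, adjusted p = 0.12 by limma). With upper-quartile scaling in edgeR the adjusted p of HSF2 was 0.0496, and in the other alternatives it reached up to 0.42.

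Within a library, the ratio of HSF2 to HSF1 normalized counts was 0.490 and 0.474 in shBDH1 and 0.211 and 0.192 in shcontrol. Such a ratio does not depend on how libraries are scaled. The log2 ratio was 1.26 higher in shBDH1, and the groups were fully apart; the exact permutation test (two-sided) gave p = 0.333, the smallest that 2 against 2 libraries allow. Per kilobase of annotated exon, HSF1 had 461 ± 11.7 normalized counts in shBDH1 against 436 ± 0.82 for HSF2, and in shcontrol HSF1 had 990 ± 28.0 against 391 ± 15.5 for HSF2 (SD, n = 2 each). The gap depends on the length used: per kilobase of the longest coding transcript, HSF1 had 1142 and HSF2 446 normalized counts in shBDH1, and HSF1 had 2452 and HSF2 399.8 in shcontrol. HSF1 was above HSF2 in both groups by either length.

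The gene next to HSF1 fell as well. BOP1, a ribosome biogenesis factor, starts on the opposite strand with 220 bases between the genes, so that both are read away from this gap. It had 3930 and 4002 normalized counts in shBDH1, against 7400 and 7115 in shcontrol, a log2 fold change of -0.87 (SE 0.05, adjusted p = 3.8e-15 by limma). BOP1 was named after its values were seen. DGAT1, which makes triglycerides, overlaps the other end of HSF1 by 139 bases on the opposite strand and did not pass the test (log2 fold change 0.04, SE 0.07, adjusted p = 0.67 by limma). A further antisense gene, AC233992.1, overlaps HSF1 by 133 bases and is not analysed here.

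Heat shock elements were looked for in the RefSeq promoters (build GRCh38.p14, 250 bases before to 50 from each start). Promoters were found for 9 of the 10 genes, all but HSF1. The 2-unit patterns were GAANNTTC and TTCNNGAA, each its own reverse complement, so that both strands were covered. The 3-unit patterns were GAANNTTC followed by NNGAA and TTCNNGAA followed by NNTTC; each is the other's reverse complement and holds both 2-unit patterns. A 2-unit pattern was found for 7 of the 9 genes, against 13.5% of 35116 promoters of the same length, and a 3-unit pattern for 4 (HSPA8, DNAJA1, HSP90AA1 and HSP90AB1), against 0.49% of promoters. Some genes have several starts, 15 in all, and a match in any of them counted, while the shares of promoters count each start alone. Counted by gene, 4410 of 27296 other genes with a promoter had a 2-unit pattern, and 162 a 3-unit pattern. HSF2 and HSPH1 had none; HSF2 was the 1 gene with CACGTG, the E-box, which 7.26% of promoters hold. The 5 promoters below are shown since their genes are the most abundant or most changed chaperones, with every element in capitals:
HSPA8, chr11:123062087-123062386, minus strand: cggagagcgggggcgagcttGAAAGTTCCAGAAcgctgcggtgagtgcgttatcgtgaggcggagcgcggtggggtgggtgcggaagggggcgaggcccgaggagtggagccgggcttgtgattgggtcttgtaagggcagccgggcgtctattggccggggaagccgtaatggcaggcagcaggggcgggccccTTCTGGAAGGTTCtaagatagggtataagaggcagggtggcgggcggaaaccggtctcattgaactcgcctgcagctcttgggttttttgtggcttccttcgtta
DNAJA1, chr9:33025023-33025322, plus strand: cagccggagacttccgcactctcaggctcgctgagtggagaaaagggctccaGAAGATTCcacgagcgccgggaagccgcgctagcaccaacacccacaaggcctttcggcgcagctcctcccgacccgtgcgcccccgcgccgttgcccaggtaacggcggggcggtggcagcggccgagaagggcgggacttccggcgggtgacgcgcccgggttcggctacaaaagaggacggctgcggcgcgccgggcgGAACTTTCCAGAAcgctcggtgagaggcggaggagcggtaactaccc
HSP90AA1, chr14:102086995-102087294, minus strand: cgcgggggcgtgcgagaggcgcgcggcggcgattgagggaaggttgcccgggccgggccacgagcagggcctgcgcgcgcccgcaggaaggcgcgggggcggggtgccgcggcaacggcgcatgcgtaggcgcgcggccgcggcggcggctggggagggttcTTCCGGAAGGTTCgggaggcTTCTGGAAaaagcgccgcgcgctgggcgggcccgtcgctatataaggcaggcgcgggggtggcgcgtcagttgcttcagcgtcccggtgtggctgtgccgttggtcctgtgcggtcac
HSP90AB1, chr6:44247693-44247992, plus strand: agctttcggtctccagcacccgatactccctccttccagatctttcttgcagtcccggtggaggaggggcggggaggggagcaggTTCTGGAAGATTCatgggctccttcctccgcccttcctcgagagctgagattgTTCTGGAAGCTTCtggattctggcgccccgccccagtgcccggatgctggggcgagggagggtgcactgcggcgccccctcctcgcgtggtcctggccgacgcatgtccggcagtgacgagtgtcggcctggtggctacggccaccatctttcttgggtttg
HSPA1B, chr6:31827488-31827787, plus strand: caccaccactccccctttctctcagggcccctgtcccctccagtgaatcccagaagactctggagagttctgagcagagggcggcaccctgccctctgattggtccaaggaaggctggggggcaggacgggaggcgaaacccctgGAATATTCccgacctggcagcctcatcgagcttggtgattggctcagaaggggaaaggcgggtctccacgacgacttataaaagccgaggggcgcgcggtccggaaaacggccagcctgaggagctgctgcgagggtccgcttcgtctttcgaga
HSPA8 has 2 elements that begin 230 and 55 bases before the start. In HSP90AA1 (start number 2 of 2) they begin 88 and 68 bases before it, and in HSP90AB1 (start number 3 of 3) 165 and 112 bases before it. Start 1 of HSP90AA1 and starts 1 and 2 of HSP90AB1 had no element and are not shown. The windows shown for these genes lie inside the annotated gene, and which start was used in these cells was not tested. HSPA1B has a 2-unit element 105 bases before its start. In DNAJA1 a 2-unit element lies 198 bases before the start, and the 3-unit element begins 3 bases past the start itself. Of the 4 genes with a 3-unit element, 3 rose and HSP90AB1 fell; 1 of the 3 is HSP90AA1, whose call 4 settings lost. Of the 49 other genes tested with such an element, 44.9% were called, against 48.1% of all genes tested with a promoter in the table. A match is a description of letters, not a sign of binding.

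HSPA8, the constitutive cytosolic HSP70 (ENSG00000109971, chromosome 11 from 123057489 to 123063230), rose. It had 39442 and 40720 normalized counts in shBDH1, against 20193 and 20131 in shcontrol. The mean in shBDH1 was 1.99 times that in shcontrol, and libraries of a group differed little. On the log2 scale the change was 0.99 (SE 0.03, 95% interval 0.93 to 1.05, adjusted p = 1.6e-20 by limma). HSPA8 took 0.136% (95% exact interval 0.135 to 0.138) and 0.141% (0.139 to 0.142) of reads in shBDH1, and 0.0686% (0.0676 to 0.0695) and 0.0684% (0.0674 to 0.0694) in shcontrol. Such intervals cover counting error only. SNORD14C, SNORD14D and SNORD14E, small nucleolar RNAs, lie within HSPA8 on the same strand and are not analysed here.

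The inducible HSP70 pair had few counted reads. HSPA1B (ENSG00000204388, chromosome 6 from 31827735 to 31830255) had 151 and 134 normalized counts in shBDH1, from 154 and 133 reads, against 51.3 and 24.5 in shcontrol, from 50 and 24 reads. The shBDH1 libraries were above both shcontrol libraries, which differed widely from each other. The difference came to 1.97 on the log2 scale (SE 0.34, 95% interval 1.28 to 2.66, adjusted p = 2.1e-05 by limma). It was 1.45 without shcontrol replicate 2 and 2.49 without shcontrol replicate 1. Without the intensity trend in limma the call of HSPA1B was lost (adjusted p = 0.066). HSPA1A (ENSG00000204389, chromosome 6 from 31815464 to 31817946) had 0 and 2 reads in shBDH1 and 0 and 1 in shcontrol, under a floor of 3 counts per library, so no fold is given. The copies are near-identical: 67.1% of all stretches of 150 bases of the HSPA1A transcript, and 70.0% of those of HSPA1B, also occur in a transcript of another gene, mostly each other's, while the other 8 genes share none. Their promoters are alike too, with 277 of 299 compared bases the same. How reads from shared stretches were counted, or whether they were dropped, is not given in these sources. The split between the copies is thus uncertain, and so is the total level of the pair. AL671762.1 also shares 920 exon bases with HSPA1B on the same strand. Summed to 1 row, the pair had a log2 fold change of 1.95.

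HSPH1, a nucleotide exchanger of HSP70 (ENSG00000120694, chromosome 13 from 31134974 to 31162388), rose by 20.9%. It had 6733 and 6792 normalized counts in shBDH1, against 5625 and 5560 in shcontrol. Its log2 fold change was 0.27 (SE 0.04, adjusted p = 7.8e-06 by limma; 0.068 without the intensity trend). Relative to HSPA8 it was lower in shBDH1, with a ratio of normalized counts of 0.171 and 0.167 in shBDH1 against 0.279 and 0.276 in shcontrol.

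DNAJA1 (ENSG00000086061, chromosome 9 from 33025211 to 33039907), a farnesylated J-domain partner of HSPA8, had 7277 and 7262 normalized counts in shBDH1, against 4318 and 4791 in shcontrol. Both shBDH1 libraries were well above both shcontrol libraries. The ratio of DNAJA1 to HSPA8 was 0.185 and 0.178 in shBDH1, against 0.214 and 0.238 in shcontrol. The DNAJA1 change came to a log2 fold change of 0.68 (SE 0.05, 95% interval 0.58 to 0.78, adjusted p = 3.4e-12 by limma). APTX, a DNA end repair enzyme read away from DNAJA1 on the opposite strand with 42 bases between them, fell: it had 1060 and 994 in shBDH1 against 1497 and 1655 in shcontrol, a log2 fold change of -0.62 (adjusted p = 2.6e-07 by limma; named after its values were seen). The neighbour across the start thus changed in the same direction at HSF1 and in the opposite direction at DNAJA1.

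DNAJB1, a heat-inducible J-domain protein (ENSG00000132002, chromosome 19 from 14514770 to 14529770), had 2728 and 2634 normalized counts in shBDH1, against 2403 and 2315 in shcontrol. Both shBDH1 libraries were higher, by 13.7% on average. Its log2 fold change of 0.18 (SE 0.06, adjusted p = 0.013 by limma) lost its call without shBDH1 replicate 1 (adjusted p = 0.072), without shcontrol replicate 2 (0.12) and without the intensity trend (0.14). TECR, an enzyme of fatty acid elongation, overlaps DNAJB1 by 12686 bases on the opposite strand, 211 of them exonic in both, and did not pass the test (log2 fold change -0.09, adjusted p = 0.27 by limma).

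**Figure D2:**
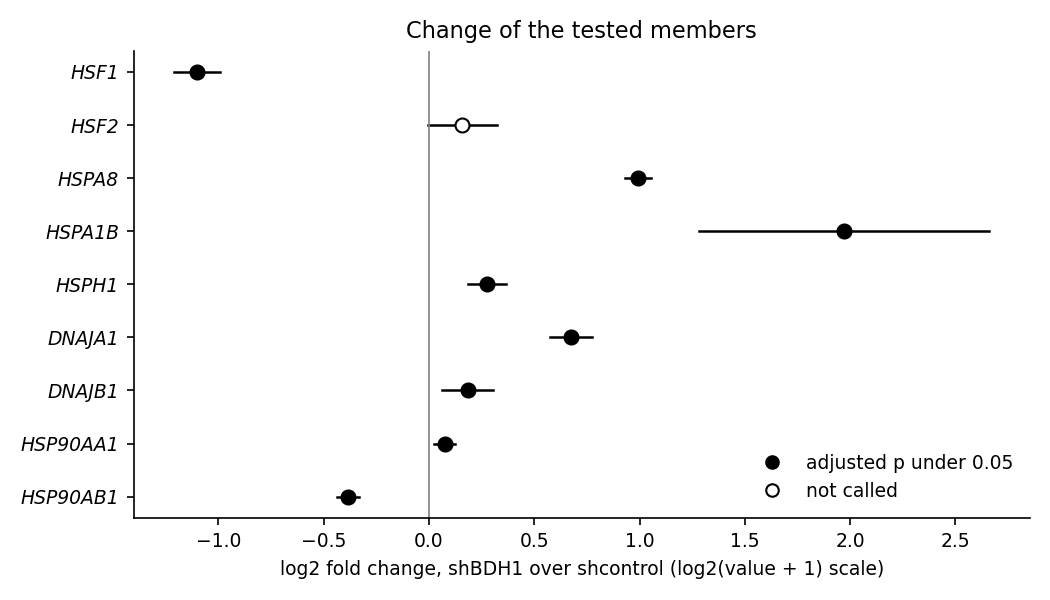
Log2 fold change of the 9 genes tested, shBDH1 over shcontrol, with bars for the 95% interval from limma, filled where the adjusted p was under 0.05. HSF1 and HSP90AB1 lie left of 0, HSPA8 at 0.99 and DNAJA1 at 0.68 have short bars, and HSPA1B at 1.97 has the widest.

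Of the HSP90 pair, HSP90AB1 fell, and HSP90AA1 was slightly higher with a call that several settings lost. HSP90AB1, the constitutive form (ENSG00000096384, chromosome 6 from 44246166 to 44253888), had 47798 and 47871 normalized counts in shBDH1, against 62194 and 62826 in shcontrol. It fell by 23.5%, far more than the spread within a group, with a log2 fold change of -0.39 (SE 0.03, 95% interval -0.44 to -0.33, adjusted p = 7.3e-13 by limma). HSP90AA1, the stress-inducible form (ENSG00000080824, chromosome 14 from 102080738 to 102139699), had 70293 and 70949 normalized counts in shBDH1, against 66358 and 67840 in shcontrol. It was 5.25% higher, a log2 fold change of 0.07 (SE 0.03, 95% interval 0.02 to 0.13, adjusted p = 0.019 by limma). That call was lost without shcontrol replicate 1 (adjusted p = 0.38), without shcontrol replicate 2 (0.15), without a filter on low values (0.059) and without the intensity trend (0.43). SLC35B2, a Golgi transporter that ends 207 bases from HSP90AB1 on the opposite strand, fell too (log2 fold change -0.33, adjusted p = 0.0017 by limma; named after its values were seen). WDR20 overlaps HSP90AA1 by 197 bases on the opposite strand and did not pass the test (log2 fold change 0.16, adjusted p = 0.11 by limma).

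The ratio of HSP90AA1 to HSP90AB1 within a library was 1.47 and 1.48 in shBDH1, against 1.07 and 1.08 in shcontrol. The log2 ratio was 0.46 higher in shBDH1 (exact permutation p = 0.333, two-sided). The ratio of HSPA8 to HSP90AB1 was 0.825 and 0.851 in shBDH1, against 0.325 and 0.320 in shcontrol, 1.38 higher on the log2 scale and the widest shift among the 5 ratios computed. The exact permutation p was 0.333 for each of the 5, and so also after adjustment over them. HSP90AA1 and HSP90AB1 together made up 0.408% and 0.411% of reads in shBDH1, against 0.437% and 0.444% in shcontrol. All 10 genes made up 0.615% and 0.622% in shBDH1, against 0.568% and 0.577% in shcontrol.

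**Figure D3:**
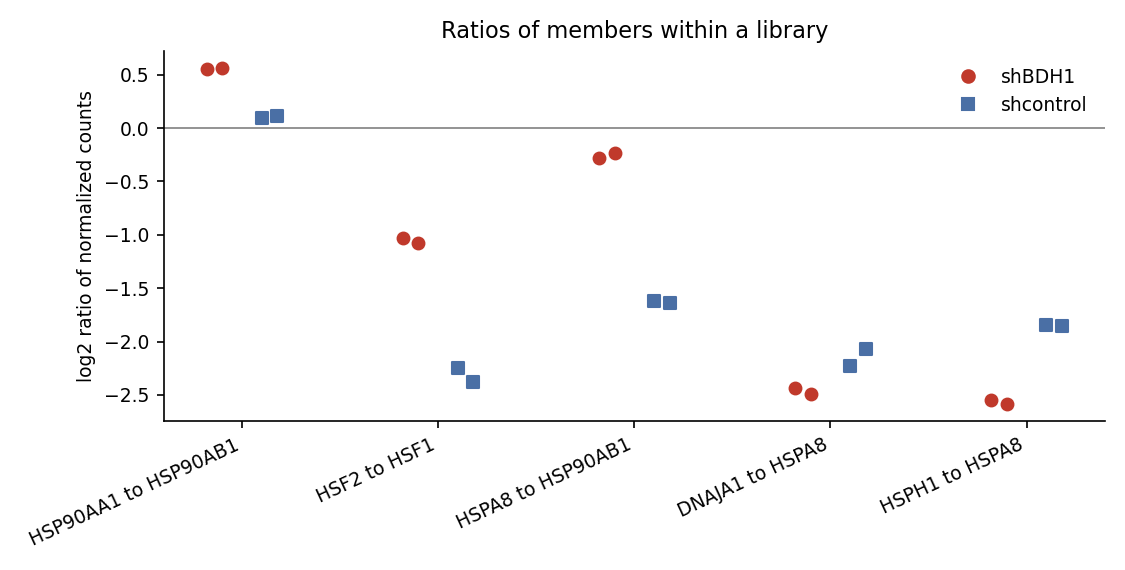
Log2 ratio of the normalized counts of 2 genes within each library, shBDH1 as circles and shcontrol as squares. The HSP90AA1 to HSP90AB1, HSF2 to HSF1 and HSPA8 to HSP90AB1 ratios lie higher in shBDH1, and the DNAJA1 to HSPA8 and HSPH1 to HSPA8 ratios lie lower.

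Per kilobase of annotated exon, the order of levels in shBDH1 was HSP90AB1 (16052 ± 17.3 normalized counts per kilobase, SD, n = 2), HSP90AA1 (13457), HSPA8 (8266), DNAJA1 (2663), HSPH1 (806), DNAJB1 (730), HSF1 (461), HSF2 (436), HSPA1B (56.5) and HSPA1A (0.405). In shcontrol HSP90AB1 had 20977 ± 150 normalized counts per kilobase (SD, n = 2), HSP90AA1 12786, HSPA8 4158 and DNAJA1 1668. There HSF1 stood above HSPH1 and DNAJB1, and the rest of the order was the same. No neighbours in either order had ranges over libraries that overlapped. The places of HSPA1B and HSPA1A depend on how reads from shared stretches were counted, which is not known. Scaled by the longest coding transcript instead, HSP90AA1 (20120 normalized counts per kilobase) stood above HSP90AB1 (17889) in shBDH1, and HSF1 (2452) above DNAJA1 (1913) in shcontrol.

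The wider cytosolic chaperone network, 7 lists with 72 genes beside the 10, had 62 genes tested. Of these 16 rose and 12 fell, 25.8% and 19.4%, beside 20.3% and 20.8% of all genes tested. Among all genes with a mean of at least 1000, the shares were 26.2% and 34.7%. The median log2 fold change of the 62 was 0.02. HSF partners had 2 that rose of 4. HSBP1, which binds HSF1 trimers, had 2034 and 2174 normalized counts in shBDH1 against 1665 and 1639 in shcontrol (log2 fold change 0.35). HSF2BP, which binds HSF2, had a log2 fold change of 0.55, near the threshold (SE 0.22, adjusted p = 0.047 by limma). Among 6 further HSP70 proteins 2 rose and 1 fell. HSPA4L, an HSP110 protein like HSPH1, had 2844 and 2684 in shBDH1 against 1479 and 1449 in shcontrol (log2 fold change 0.92), while its relative HSPA4 fell by 0.14 on the log2 scale. HSPA2, known for its role in the testis and named after its values were seen, had 88.5 and 85.5 in shBDH1 against 18.5 and 32.7 in shcontrol (log2 fold change 1.78).

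Of 16 J-domain proteins 4 rose and 2 fell, 25% and 12.5%, beside 20.3% and 20.8% of all genes tested. DNAJB6, which holds back aggregation of polyglutamine proteins, had 5263 and 4883 normalized counts in shBDH1 against 2749 and 2821 in shcontrol (log2 fold change 0.86), DNAJB5 rose by 0.72 and DNAJA2, a relative of DNAJA1, by 0.34. DNAJA4, named after its values were seen, rose by 0.77 but near the threshold (SE 0.30, adjusted p = 0.044 by limma). DNAJC24 and DNAJC7 fell by 0.28 and 0.27. Of 9 HSP70 cofactors 1 rose and 3 fell: BAG3, which links HSP70 to autophagy, rose by 0.47, and the ubiquitin ligase STUB1 fell by 0.38, the nucleotide exchangers BAG1 by 0.38 and HSPBP1 by 0.32.

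Of 14 HSP90 co-chaperones tested 4 rose and 4 fell, 28.6% each, beside 20.3% and 20.8% of all genes tested. FKBP5, an immunophilin that is also a glucocorticoid receptor target, rose by 0.51, SUGT1 by 0.21, STIP1, which hands clients from HSP70 to HSP90, by 0.20 and PTGES3 (p23) by 0.20. CDC37, which brings kinases to HSP90, fell by 0.34, NUDC by 0.22 and the ATPase activator AHSA1 by 0.17. PTGES3 and AHSA1 were named after their values were seen. Of 4 small heat shock proteins tested HSPB1 (HSP27) fell by 0.21 (adjusted p = 0.035 by limma), and 3 did not pass the test. Among the 3, HSPB6 had 24.6 and 11.1 normalized counts in shBDH1 against 24.6 and 30.7 in shcontrol. HSPB9 had 10.8 and 17.1 in shBDH1 against 8.21 and 12.3 in shcontrol. Both were named after their values were seen, and at such low counts a change could hardly be called. Of 9 other heat-inducible genes 3 rose and 1 fell. DEDD2 rose by 0.34 and UBB by 0.12, and the mitochondrial chaperonin HSPD1 fell by 0.19.

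**Figure D4:**
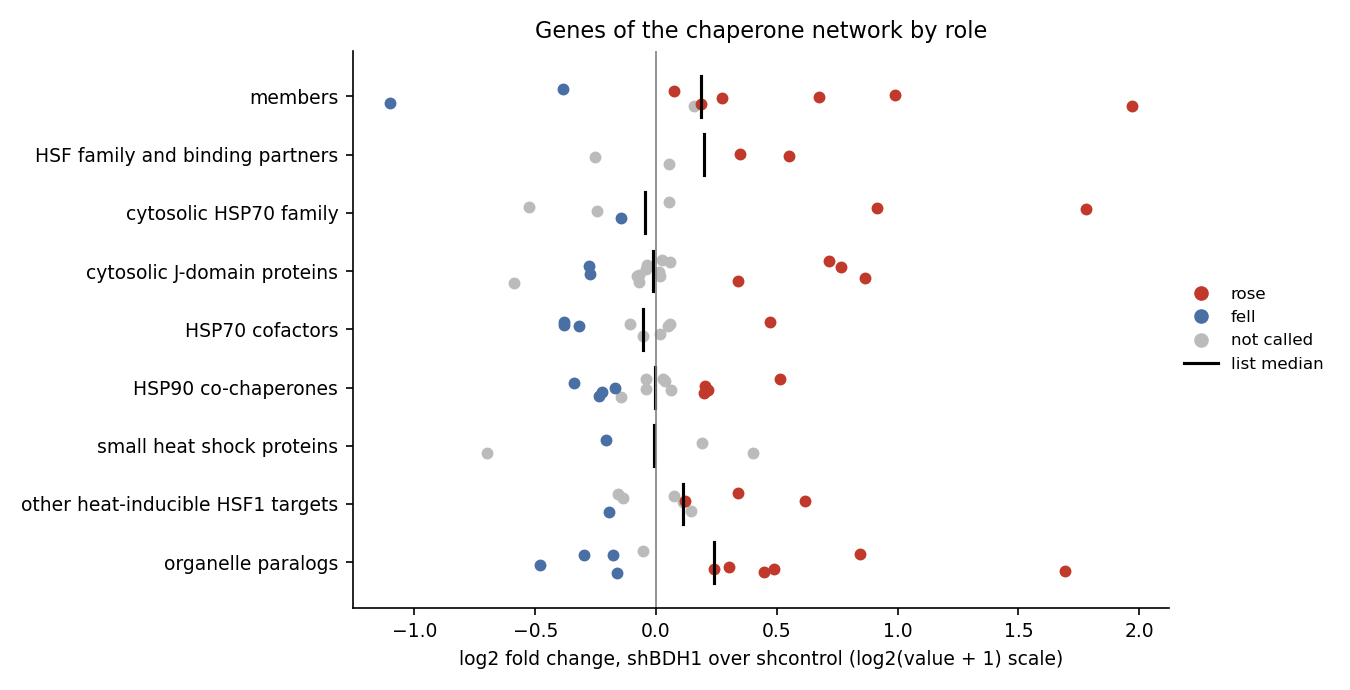
Log2 fold change of each gene tested, shBDH1 over shcontrol, by list, with red for genes that rose, blue for genes that fell, grey for genes not called and a bar at each list's median. HSF1 at -1.10 lies farthest left, and HSPA1B, HSPA2 and HSPA5 farthest right.

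**Figure D5:**
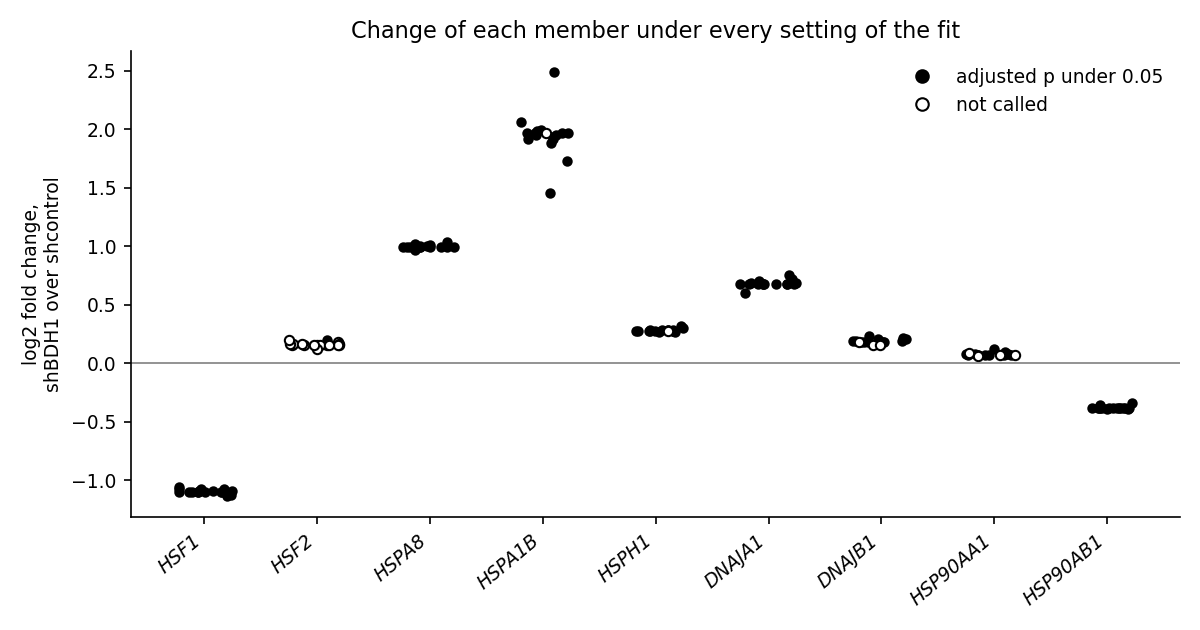
Log2 fold change of each of the 9 genes tested, shBDH1 over shcontrol, under the reported fit and 16 alternatives, filled where the adjusted p was under 0.05. Each gene stayed on its side of 0, HSF1 between -1.13 and -1.06 and HSPA8 between 0.97 and 1.03, while HSF2, HSPA1B, HSPH1, DNAJB1 and HSP90AA1 changed between called and not called.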

How the data were processed

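The 4 Jurkat libraries were sequenced for mRNA, 2 with shBDH1 and 2 with shcontrol. The submitters' processing notes name hg38, FastQC 0.11.9 and HISAT2 2.2.1; the sources used here give no counter, annotation or strand setting. The deposited table holds a normalized signal per gene: counts that the authors divided by 1 size factor per library, found from the values, since 100.0% were whole multiples of 1 step within 0.01 reads. Size factors were 1.0174 and 0.9944 for shBDH1 and 0.9739 and 0.9785 for shcontrol. No replicate pair was 1 library under 2 names: chi-square per degree of freedom was 4.98 within shBDH1 and 3.71 within shcontrol.

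The main test was limma 3.58.1 (R 4.3.3) with an intensity trend on log2(value + 1) across 19301 genes with a mean of at least 10, adjusted by Benjamini-Hochberg with a threshold of 0.05; there were 2 residual and 25.8 prior degrees of freedom. Alternatives used edgeR 4.0.16, DESeq2 1.42.0 and limma-voom on the recovered reads (edgeR called 3976 genes up and 3917 down), and other filters, pseudocounts and library subsets. The fits were tested on simulated data. Gene lengths and overlaps come from GENCODE 29 (25010 genes matched), promoters from RefSeq. Beside the 10 genes and BDH1, the text names up to 3 genes each way per list among those called with a mean of at least 100; it also names genes that overlap the 10 on the opposite strand and up to 3 genes most like HSF1 and HSPA8. Some genes that this rule names are not reported here. Others are said to be named after their values were seen. The genes, lists and tests were chosen with earlier results of these data known. Since the strand setting is not known, it is also not known whether reads of overlapping genes on opposite strands were told apart.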

Additional observations from a re-analysis of the deposited data

How the results depend on the processing

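Without the intensity trend in limma, which gives genes of every level 1 common prior, 2 of the 10 genes rose in place of 6, and 7 genes of the wider network rose and 0 fell in place of 16 and 12; all genes called were 1598 up and 1246 down. At an unadjusted p under 0.05, the same limma setting had 13 network genes higher and 8 lower. After adjustment edgeR called 15 up and 12 down, and DESeq2 14 and 10. In all other settings these counts stayed within 1.5 times the reported ones, and the 10 genes had 4 to 7 that rose and 2 that fell. HSF1, HSPA8, DNAJA1 and HSP90AB1 kept their call in all 16 alternatives; no gene changed direction. Leaving out 1 library at a time gave HSPA1B log2 fold changes from 1.45 to 2.49. With the replicate block 6 of the 10 genes rose and 2 fell, as without it, and all genes called were 4108 up and 4217 down. Same-numbered libraries did not deviate together (correlation 0.04 over 13922 genes). With 1 difference per group, this cannot show whether same-numbered libraries shared a culture or a preparation, and the labels do not say. The scaling moved the median of all genes by at most 0.04 on the log2 scale. Leaving out 1 library gave 4 to 6 of the 10 genes that rose, 13 to 14 network genes that rose and 10 to 13 that fell. HSPA1A had too few counted reads to test.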

Other observations

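Of 11 relatives of these chaperones in the endoplasmic reticulum and mitochondria, 6 rose and 4 fell (limma, Benjamini-Hochberg adjusted p under 0.05). Of all genes tested, 20.3% rose and 20.8% fell. Among those with a mean of at least 1000, 26.2% rose and 34.7% fell. HSPA5, the HSP70 of the endoplasmic reticulum, had 18528 and 18927 normalized counts in shBDH1 against 5889 and 5703 in shcontrol, and HSP90B1, its HSP90, had 18137 and 18855 in shBDH1 against 9804 and 10795 in shcontrol. Their log2 fold changes of 1.69 and 0.85 stand beside 0.99 for HSPA8 and -0.39 for HSP90AB1. DNAJB9, a J-domain protein of that compartment, rose by 0.49. The mitochondrial HSP90 TRAP1 fell by 0.48, the J-domain protein DNAJA3 by 0.30 and the nucleotide exchanger GRPEL1 by 0.18 (adjusted p = 0.043 by limma for GRPEL1). The difference between compartments was not tested.

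Beyond the 10 genes, 49 tested genes had a 3-unit heat shock element in a RefSeq promoter; 11 rose and 11 fell, 44.9% in all, with a median log2 fold change of 0.03. Of the 11284 tested genes with any promoter in that table, 48.1% were called.

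Over the 4 libraries, genes near to HSF1 in mean-centred log2 level, among 7226 with a mean of at least 1000, were CEP70 and ADD2, with root mean square differences of 0.022 and 0.027. Those nearest to HSPA8 were AC063952.1, OSBPL3 and CCDC136, at 0.0093, 0.025 and 0.028. The 4 points fall in 2 groups of 2.

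Pseudogene copies of the 10 genes had at most a mean of 7.35 normalized counts (HSP90AB3P, named after its values were seen).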
